A study of Mus musculus with 30 samples.

Results

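A set of 9 genes that mark neutrophils was followed in EL4 tumours: S100a8, S100a9, Csf3r, Cxcr2, Retnlg, Lcn2, Camp, Ngp and Mmp8. They were taken as a list of symbols, not by a cut on their measured values. Earlier results of these data were known when the list was chosen. All 9 were found among the 19938 genes tested, each on 1 row of the array table. EL4 is a mouse T cell lymphoma line, and 500000 cells were injected under the skin of the flank. The antibiotic groups (ABX in the labels) came from mice that had received an antibiotic cocktail for 3 weeks, and the water groups (H2O) from mice without it. Oxaliplatin, a platinum drug that damages DNA, was given at 10 mg/kg into the abdominal cavity 7 days after the cells, and tumours were taken 0, 6 or 18 h after it. The design text calls the first time one before treatment. The sample titles carry the prefix WT in every group. This gave 6 groups of 5 arrays: antibiotics and water at 0 h, antibiotics and water at 6 h, and antibiotics and water at 18 h. The study asked how antibiotics alter tumour gene expression before and soon after the drug. No tumours without oxaliplatin at 6 or 18 h were analysed here, so an effect of the drug and other change with time cannot be told apart. Separate mice for the arrays of a group are not stated in the labels, so every p-value here reflects the spread between arrays, some of which may be technical. Neither the sex nor the age of the mice is in the labels.

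Neutrophils are short-lived white blood cells made in the bone marrow and sent to inflamed tissue by chemokines. They store proteins in granules that are filled in order as the cell matures, so RNA for most granule proteins is made in the marrow and falls as the cell leaves it, while mature cells in tissue keep RNA for surface receptors and the S100 proteins. In tumours they are one of several host cell types beside macrophages, vessels and fibroblasts. EL4 cells are T cells and not of this lineage. The T cell genes Thy1 and Cd3e averaged 11.96 and 11.28 in antibiotic tumours at 0 h, against 11.98 and 11.40 in water tumours, in log2 units. In a bulk sample, fewer neutrophils and less RNA of a gene per neutrophil cannot be told apart.

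The promoters of 6 of these genes are shown because they belong to the genes whose levels varied together over the arrays, and to the 2 that did not go with them (Camp and Ngp). Each window holds 300 bases around a RefSeq start site on mouse build GRCm38.p6, most of them before it, read in the gene's own direction. Capitals mark matches on either strand to the C/EBP letters TTGCNNAA or the PU.1 letters GAGGAAG, sites of 2 families of transcription factors that drive granulocyte genes. For Csf3r the window lies inside the annotated gene, whose outer bound on chromosome 4 is at position 126023441. The windows lie at chr3:90668821-90669120 on the plus strand for S100a8, chr3:90695672-90695971 on the minus strand for S100a9, chr4:126024409-126024708 on the plus strand for Csf3r, chr1:74153744-74154043 on the plus strand for Cxcr2, chr9:109849407-109849706 on the minus strand for Camp and chr9:110419558-110419857 on the plus strand for Ngp.
S100a8: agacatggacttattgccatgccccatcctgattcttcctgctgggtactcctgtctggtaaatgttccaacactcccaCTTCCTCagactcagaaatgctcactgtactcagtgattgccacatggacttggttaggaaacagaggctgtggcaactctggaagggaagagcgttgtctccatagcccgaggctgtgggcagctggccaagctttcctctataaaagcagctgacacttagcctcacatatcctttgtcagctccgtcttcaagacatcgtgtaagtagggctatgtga
S100a9: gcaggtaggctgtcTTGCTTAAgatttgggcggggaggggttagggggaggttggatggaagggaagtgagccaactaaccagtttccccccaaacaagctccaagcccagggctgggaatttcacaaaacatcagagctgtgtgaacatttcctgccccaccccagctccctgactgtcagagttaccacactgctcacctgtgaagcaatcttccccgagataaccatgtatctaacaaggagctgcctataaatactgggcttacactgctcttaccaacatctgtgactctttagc
Csf3r: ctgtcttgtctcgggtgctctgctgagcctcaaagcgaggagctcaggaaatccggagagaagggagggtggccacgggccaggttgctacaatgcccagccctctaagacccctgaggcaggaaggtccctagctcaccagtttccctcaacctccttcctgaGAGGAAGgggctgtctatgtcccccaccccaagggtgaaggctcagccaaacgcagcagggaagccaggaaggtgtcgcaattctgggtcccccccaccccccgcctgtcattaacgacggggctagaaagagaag
Cxcr2: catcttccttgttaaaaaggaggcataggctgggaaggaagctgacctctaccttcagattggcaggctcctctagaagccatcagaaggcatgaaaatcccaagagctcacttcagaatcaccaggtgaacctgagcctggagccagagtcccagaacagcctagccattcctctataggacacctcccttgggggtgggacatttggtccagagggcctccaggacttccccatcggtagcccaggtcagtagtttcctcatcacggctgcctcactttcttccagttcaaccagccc
Camp: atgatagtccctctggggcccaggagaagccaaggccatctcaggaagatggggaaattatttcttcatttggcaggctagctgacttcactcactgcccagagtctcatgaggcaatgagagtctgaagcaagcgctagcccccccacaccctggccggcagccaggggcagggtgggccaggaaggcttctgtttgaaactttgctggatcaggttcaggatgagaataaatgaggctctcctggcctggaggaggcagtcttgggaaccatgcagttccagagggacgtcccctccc
Ngp: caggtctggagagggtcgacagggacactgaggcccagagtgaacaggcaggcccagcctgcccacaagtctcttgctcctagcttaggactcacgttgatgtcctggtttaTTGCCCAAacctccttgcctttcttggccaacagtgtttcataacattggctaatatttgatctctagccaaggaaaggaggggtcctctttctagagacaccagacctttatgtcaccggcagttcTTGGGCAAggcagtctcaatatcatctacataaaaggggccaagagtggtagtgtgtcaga

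All 9 genes had a promoter in the RefSeq table. The C/EBP letters stood in 5 of the 9 windows (S100a9, Retnlg, Lcn2, Ngp and Mmp8), against 10.8% of all 32851 promoters of this length. The PU.1 letters stood in 4 of 9 (S100a8, Csf3r, Lcn2 and Mmp8), against 13.6% of all promoters. No C/EBP match overlapped a PU.1 match. The STAT letters TTCNNNGAA (8.3% of all promoters) and the NF-kB letters (GGG, any 2 bases, then TTTCC; 1.63%), also searched on both strands, stood in 0 of 9. Lcn2 and Mmp8 had both kinds of match, Ngp had 2 C/EBP matches, and Cxcr2 and Camp had none of the 4. A match describes these letters only. On that build S100a8 and S100a9 lie 22.6 kb apart on chromosome 3 with no other gene starting between them. Camp and Ngp share chromosome 9 but lie 570 kb apart, with 18 genes starting between them.

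The 9 genes did not stand equally far above the level that these arrays give for genes thought to be silent. As that level, 1194 rows of olfactory and vomeronasal receptor genes were used, whose median was 4.68 and 95th percentile 6.43 in log2 units. Lcn2, an iron-scavenging protein that macrophages and epithelia also make, averaged 10.3 over the 30 arrays. Cxcr2, the receptor for the Cxcl1 family of chemokines, averaged 8.76, and Csf3r, the receptor for the growth factor G-CSF, averaged 8.51. S100a9 averaged 7.93 and S100a8 7.57. They encode the subunits of calprotectin, the main cytosolic protein of neutrophils. These 5 genes lay above the 95th percentile of the silent receptors on 30 of 30 arrays.

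The other 4 genes lay near it. Camp, the precursor of the antimicrobial peptide cathelicidin, averaged 6.56 and was above the 95th percentile on 26 arrays. Retnlg, a secreted resistin-like protein of mouse marrow and blood, averaged 6.27 and was above it on 6 arrays. Mmp8, the neutrophil collagenase, averaged 6.20 and was above it on 7. Ngp, neutrophilic granule protein, averaged 5.32 and was above it on 0 of 30 arrays. Row levels depend on the probes as well as on the RNA, so they do not rank the genes by amount.

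**Figure D1:**
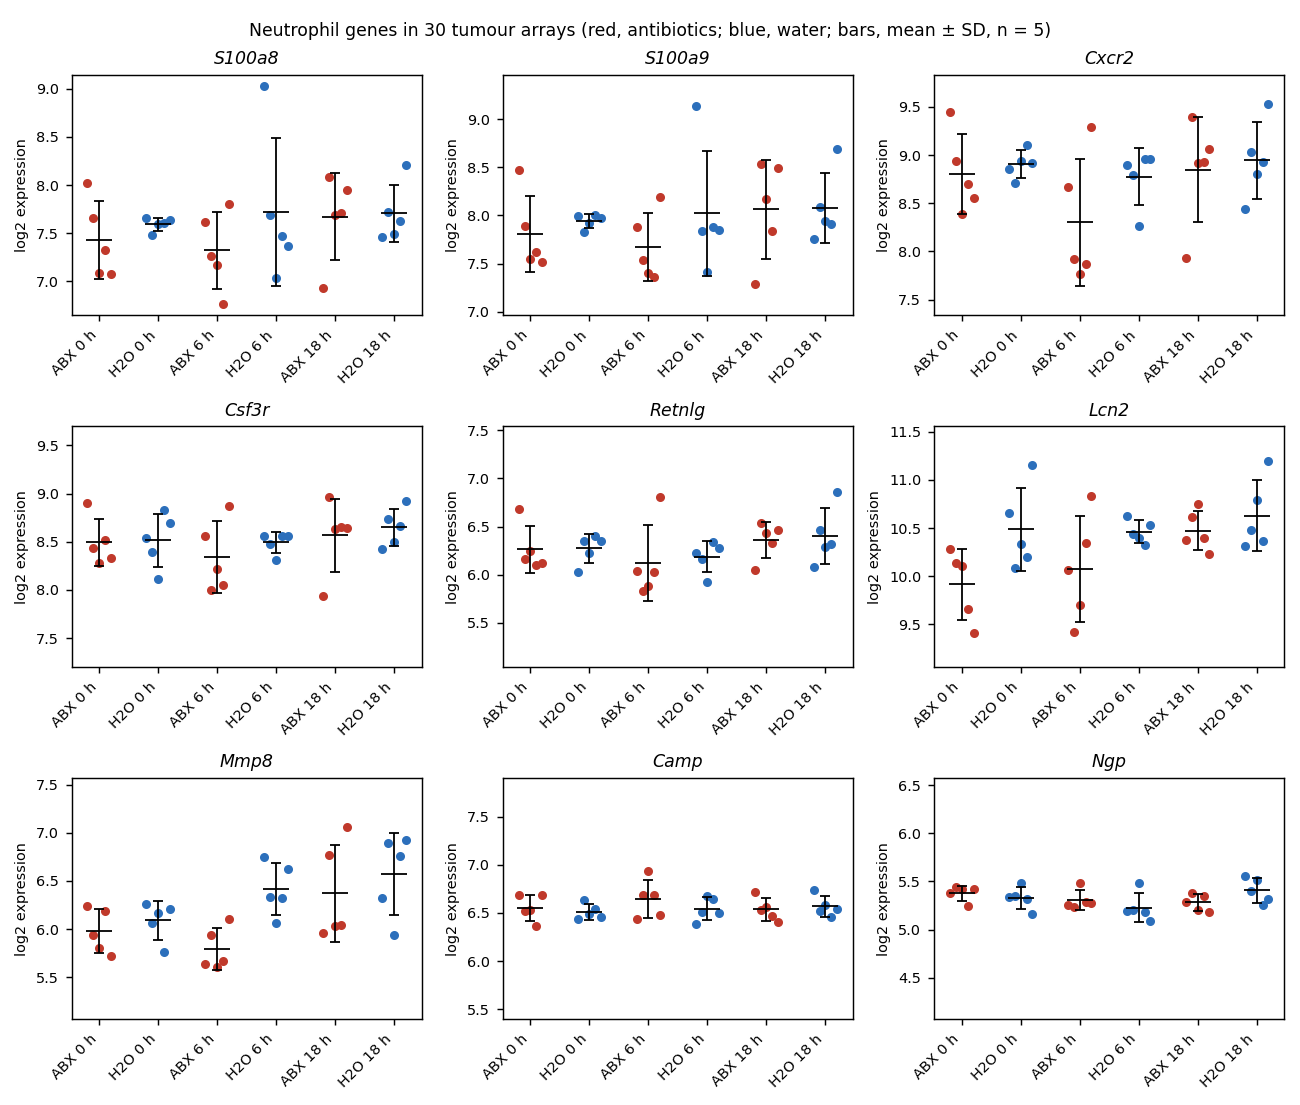
Log2 expression (y axis) of each of the 9 genes on the 30 arrays, by group (x axis; red points antibiotics, blue points water; bars, mean ± SD, n = 5). Groups overlap for every gene, the antibiotic 6 h group has the lowest mean for 6 of the genes, and Camp and Ngp span less than the others.

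The genes differed more between arrays of the same group than between groups. Within groups the SD was 0.450 for S100a8, 0.441 for Cxcr2, 0.429 for S100a9, 0.368 for Lcn2, 0.329 for Mmp8, 0.279 for Csf3r and 0.253 for Retnlg, where the median gene on these arrays had 0.115. For S100a8, 99.0% of all genes tested had a smaller spread, and for Retnlg 95.7%. Camp (0.132) and Ngp (0.112) varied about as much as the median gene. The share of a gene's variance that lay between the 6 groups ran from 11.3% for Camp and 11.9% for S100a8 to 37.3% for Lcn2 and 45.7% for Mmp8.

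S100a8 shows this spread. At 0 h it read 8.02, 7.65, 7.09, 7.33 and 7.07 in antibiotic tumours, against 7.65, 7.48, 7.60, 7.60 and 7.63 in water tumours. At 6 h it read 7.61, 7.26, 7.17, 6.76 and 7.80 with antibiotics, against 9.03, 7.69, 7.04, 7.47 and 7.36 with water. At 18 h it read 6.93, 8.09, 7.69, 7.71 and 7.95 with antibiotics, against 7.46, 7.72, 7.50, 7.63 and 8.21 with water. The 5 water tumours at 0 h were close together (SD 0.068), water array 1 at 6 h stood far above the rest, and the groups overlapped at each time. When the 6 group means of each gene were put in order, all 5 pairs of neighbours had overlapping ranges for every one of the 9 genes. The lowest group mean was that of antibiotics at 6 h for S100a8, S100a9, Csf3r, Cxcr2, Retnlg and Mmp8. The highest was that of water at 18 h for S100a9, Csf3r, Cxcr2, Retnlg, Lcn2, Ngp and Mmp8.

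**Figure D2:**
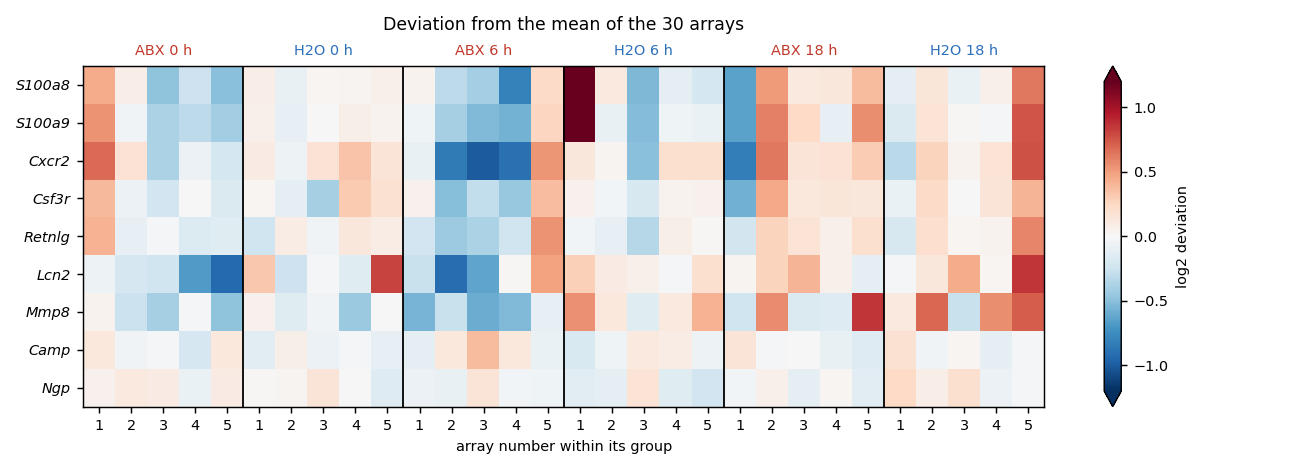
Deviation of each gene (rows) from its mean over the 30 arrays, in log2 units (colour), by array number within its group (columns). Blocks of one colour run down several genes on single arrays, such as antibiotic arrays 2, 3 and 4 at 6 h (low) and water array 5 at 18 h (high), while Camp and Ngp stay pale.

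Over the 30 arrays, S100a8, S100a9, Csf3r, Cxcr2 and Retnlg went up and down together. S100a8 and S100a9 had a Pearson r of 0.963 (Spearman's rho 0.904), Csf3r and Cxcr2 had 0.885 (0.849), and Cxcr2 and Retnlg had 0.851 (0.865). The 10 pairs among these 5 genes had an r between 0.57 and 0.963 and a rho between 0.703 and 0.904. With 100000 permutations the largest adjusted p among them was 0.0044, with Benjamini-Hochberg adjustment over the 117 relations computed. The same pairs had an r of 0.762 to 0.957 without the 2 arrays farthest from the median, and of 0.561 to 0.96 after each group's mean had been removed. The 5 genes were set apart after their values had been seen, so the split is a description.

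Lcn2 and Mmp8 went with these 5 less closely. Their 10 pairs with them had an r of 0.459 to 0.68 and a rho of 0.421 to 0.617 (largest adjusted permutation p = 0.049), and 0.445 to 0.609 without the 2 farthest arrays. Lcn2 and Mmp8 had an r of 0.454 with each other (rho 0.487, adjusted permutation p = 0.027 and 0.019), which was 0.192 with group means removed. No test compared these correlations with the closer ones. The labels name no batch of arrays, and arrays were numbered in blocks by group.

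Camp and Ngp did not follow the other genes. Camp had an r of -0.591 to -0.332 with the other 7, and 4 of these 7 relations passed by both r and rho after adjustment (S100a8, S100a9, Csf3r and Mmp8). Ngp had an r of -0.307 to -0.169 with them, and 0 of 7 passed. Between Camp and Ngp r was 0.458 (rho 0.442, adjusted permutation p = 0.024 and 0.036), and 0.297 without the 2 farthest arrays.

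Both Camp and Ngp moved with the silent receptor rows. The mean of the 1194 receptor rows on an array had an r of 0.761 with Camp (rho 0.687, adjusted permutation p = 9e-05 and 0.00028), and 0.589 without the 2 farthest arrays. With Ngp it had an r of 0.524 (rho 0.497, adjusted permutation p = 0.0088 and 0.018), and 0.355 without those arrays. For the other 7 genes this r lay between -0.437 and -0.28. The part of this array-wide level in the values of Camp and Ngp was not tested further.

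**Figure D3:**
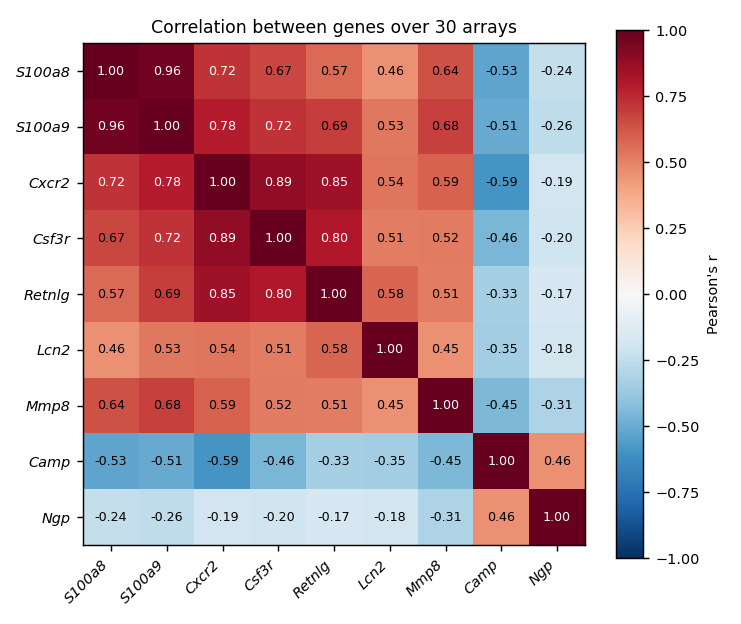
Pearson's r between each pair of the 9 genes over the 30 arrays (colour and printed value). S100a8, S100a9, Cxcr2, Csf3r and Retnlg form a block of positive values from 0.57 to 0.96, Lcn2 and Mmp8 are lower but positive, and Camp and Ngp are negative with all 7.

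The clearest low values of the set were in antibiotic tumours 6 h after oxaliplatin. Mmp8, Cxcr2, S100a8, Lcn2 and S100a9 had lower means there than in water tumours, by 0.35 to 0.62 in log2 units, and none of these differences passed the test. Of the 9 genes 0 were called by limma at an adjusted p under 0.05, where 3.77% of all genes were. One of the 9 (Mmp8) had an unadjusted p under 0.05, as 3969 of the 19938 genes tested did. No gene of the 9 had groups that did not overlap at 6 h, as 4.95% of all genes did. The median change of the 9 was -0.35, beside 0.011 for all genes.

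Cxcr2 at 6 h read 8.67, 7.92, 7.77, 7.86 and 9.29 in antibiotic tumours, against 8.90, 8.80, 8.26, 8.96 and 8.96 in water tumours. Antibiotic arrays 2, 3 and 4 were below every water array, and array 5 was above every one. The difference was -0.47 ± 0.26 (SE, n = 5 each), with a 95% interval from -1.01 to 0.06 and a limma adjusted p of 0.315. Antibiotic array 5 had the highest mean of the skeletal muscle markers of all arrays (1.51 above the mean of the 30 arrays). Antibiotic array 1 and water array 1 had the highest means of the keratinocyte markers (1.66 and 1.72), and antibiotic arrays 2, 3 and 4 had keratinocyte means of 0.40, -0.02 and 0.66. Without these 3 arrays Cxcr2 was lower with antibiotics by limma, at -0.89 ± 0.26 (adjusted p = 0.0458). That call rests on 3 antibiotic arrays against 4 water arrays. The antibiotic arrays left out, 1 and 5, held the highest Cxcr2 values of their group.

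Csf3r, the second receptor, read 8.56, 8.00, 8.22, 8.05 and 8.88 in antibiotic tumours at 6 h, against 8.56, 8.47, 8.31, 8.55 and 8.56 in water tumours. The same antibiotic arrays 2, 3 and 4 were the low ones, and the difference was -0.15 ± 0.17 (limma adjusted p = 0.62). Without the 3 arrays it was -0.39 ± 0.18 (adjusted p = 0.183).

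S100a8 and S100a9 differed at 6 h by -0.40 ± 0.27 and -0.35 ± 0.25 (limma adjusted p = 0.411 and 0.449). S100a9 read 7.88, 7.54, 7.41, 7.36 and 8.19 with antibiotics, against 9.13, 7.84, 7.41, 7.88 and 7.85 with water. Water array 1, high for keratinocyte markers, held the highest value of both genes on any array, while its Cxcr2 level of 8.90 was in the middle of its group. Keratinocytes can make both S100 proteins, and their part in this array's value was not tested. Left out alone, that array took the differences to -0.07 for both genes. Retnlg differed by -0.07 ± 0.15 at 6 h (adjusted p = 0.812).

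Among the granule genes Mmp8 had the largest difference at 6 h. At 6 h it read 5.64, 5.94, 5.60, 5.67 and 6.11 in antibiotic tumours, against 6.75, 6.33, 6.06, 6.32 and 6.62 in water tumours. Only antibiotic array 5 reached into the range of the water group. The difference was -0.62 ± 0.20 (95% interval -1.02 to -0.22, a ratio of 0.649). The unadjusted limma p was 0.0035 and 0.0701 after adjustment. It was called with array weights (-0.61, adjusted p = 0.04995) and without antibiotic array 5 (-0.70, adjusted p = 0.0385). Its levels in the antibiotic group lay below the 95th percentile of the silent receptor rows on 5 of 5 arrays.

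Lcn2 at 6 h read 10.07, 9.43, 9.71, 10.35 and 10.83 with antibiotics, against 10.63, 10.44, 10.40, 10.32 and 10.53 with water. The first 3 antibiotic arrays were below the water group, array 4 was inside it and array 5 above it, and the difference was -0.39 ± 0.22 (limma adjusted p = 0.322). It was -0.23 without antibiotic array 2, -0.58 without antibiotic array 5 and -0.59 without the 3 skin or muscle arrays, and passed in none of these. Camp (0.10 ± 0.08) and Ngp (0.08 ± 0.07) had the opposite sign, with adjusted p-values of 0.487 and 0.543.

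**Figure D4:**
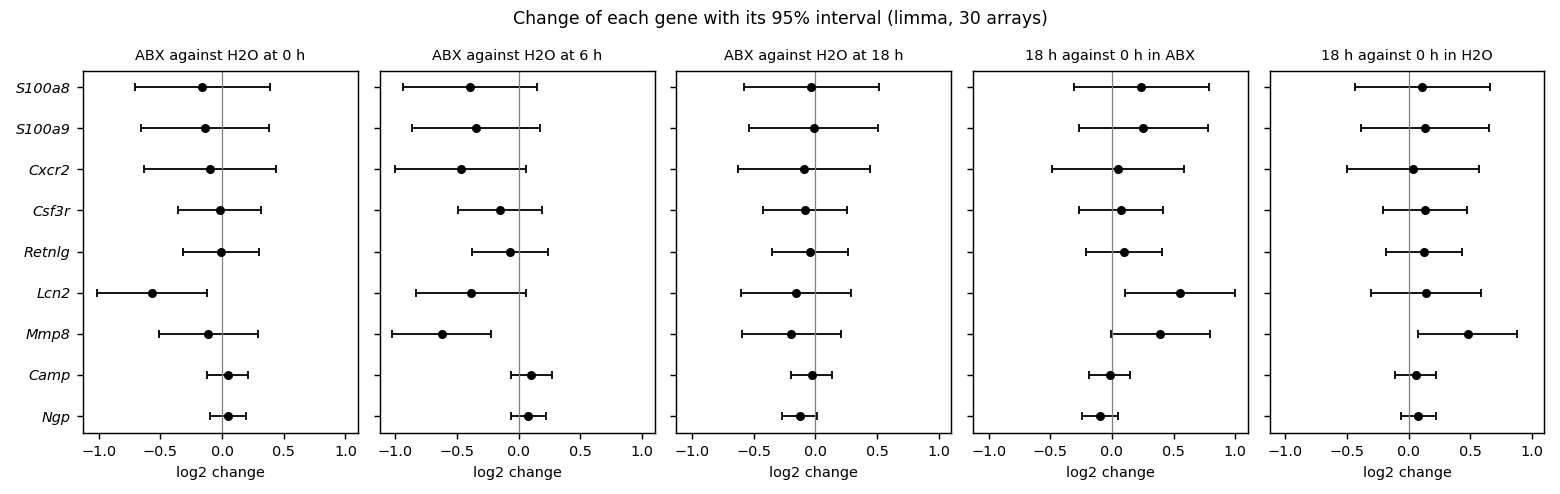
Log2 change of each gene (y axis) in 5 comparisons (panels; x axis, first-named group minus second), with the 95% interval of limma over 30 arrays. The intervals without 0 are those of Lcn2 at 0 h and Mmp8 at 6 h (antibiotics lower), of Lcn2 from 0 to 18 h with antibiotics and of Mmp8 from 0 to 18 h with water (18 h higher), and none of the 4 passed after adjustment.

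At 0 h the mean differences between antibiotic and water tumours were below 0.2 in log2 units apart from that of Lcn2. Of the 9 genes 0 were called (0.0903% of all genes), 1 had an unadjusted p under 0.05 (1317 of all 19938 genes), and 0 had groups without overlap (1.65% of all genes). Lcn2 read 10.28, 10.14, 10.11, 9.66 and 9.41 in antibiotic tumours at 0 h, against 10.66, 10.09, 10.33, 10.20 and 11.15 in water tumours. Its lowest values were antibiotic arrays 4 and 5 and its highest water array 5, and the difference was -0.57 ± 0.22 (unadjusted p = 0.0145, limma adjusted p = 0.58). For the other 8 genes the differences ran from -0.16 to 0.05. Csf3r (-0.02) and Retnlg (-0.01) turned positive when array medians were subtracted, and Retnlg did so with quantile normalization too.

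At 18 h the means of the 2 groups were closer than at 6 h for every gene but Ngp. Those of Mmp8, Ngp, Csf3r and Retnlg were farther apart than at 0 h. All 9 genes had a lower mean with antibiotics, by 0.20 at most (Mmp8, -0.20 ± 0.20), and S100a9 (-0.01) turned positive when array medians were subtracted. Of the 9, 0 were called (7.85% of all genes), 0 had an unadjusted p under 0.05 (3984 of all 19938 genes), and 0 had groups without overlap (7.2% of all genes). Cxcr2 at 18 h read 7.93, 9.40, 8.91, 8.93 and 9.07 in antibiotic tumours, against 8.44, 9.03, 8.80, 8.92 and 9.53 in water tumours. Antibiotic array 1 was the lowest of that time and water array 5 the highest, and the difference was -0.10 ± 0.26 with a 95% interval from -0.63 to 0.44. Intervals of this width include changes in either direction, so equal levels are not shown.

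Averaged over the 3 times, Lcn2 (-0.37 ± 0.13, 95% interval -0.63 to -0.11) and Mmp8 (-0.31 ± 0.11, 95% interval -0.54 to -0.08) had an unadjusted p under 0.05, as 3744 of all 19938 genes did. Their limma adjusted p-values were 0.0751 and 0.103, so 0 of the 9 genes were called, where 6.65% of all genes were. Both passed with array weights (-0.40 for Lcn2 and -0.33 for Mmp8). Lcn2 also passed without the 3 skin or muscle arrays (-0.44, adjusted p = 0.0252) and without antibiotic 6 h array 5 (-0.43). Mmp8 also passed without water 18 h array 3 (-0.36) or without antibiotic 18 h array 5 (-0.37). Cxcr2 differed by -0.22 ± 0.15, and the remaining genes by -0.20 to 0.04.

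In antibiotic tumours the means of S100a8, S100a9, Csf3r, Cxcr2, Retnlg and Mmp8 were lowest at 6 h, and no change between times was called. Cxcr2 read 9.44, 8.94, 8.39, 8.70 and 8.55 at 0 h, before the low values at 6 h and the 18 h values given above. From 0 to 6 h its change was -0.50 ± 0.26 (limma adjusted p = 0.526). From 6 to 18 h it was 0.55 ± 0.26 (adjusted p = 0.299), and from 0 to 18 h 0.05 ± 0.26. No gene of the 9 was called from 0 to 6 h (0% of all genes, with 0 of the 9 at an unadjusted p under 0.05), from 0 to 18 h (1.22% of all genes, 1 of the 9 at an unadjusted p under 0.05) or from 6 to 18 h (2.12% of all genes, 2 of the 9). Of all 19938 genes 2011, 2223 and 3196 had an unadjusted p under 0.05 over these 3 intervals. Without the 3 skin or muscle arrays the Cxcr2 change from 6 to 18 h was 1.00 ± 0.25 (limma adjusted p = 0.0276). At 6 h that call rests on antibiotic arrays 2, 3 and 4 alone, the lowest of their group for Cxcr2.

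Mmp8 in antibiotic tumours read 6.24, 5.94, 5.80, 6.19 and 5.72 at 0 h, and 5.96, 6.77, 6.03, 6.04 and 7.06 at 18 h. Only arrays 2 and 5 at 18 h stood above the 0 h arrays. Its change from 6 to 18 h was 0.58 ± 0.20 (limma adjusted p = 0.122). Lcn2 read 10.38, 10.61, 10.75, 10.40 and 10.23 at 18 h, where 4 of 5 arrays were above all 0 h arrays, and its change from 0 to 18 h was 0.55 ± 0.22 (adjusted p = 0.268). The median change of the 9 genes in antibiotic tumours was -0.13 from 0 to 6 h and 0.35 from 6 to 18 h, beside all-gene medians within 0.022 of 0.

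In water tumours from 0 to 18 h all 9 means were higher, with a median change of 0.13, but 0 of the 9 genes were called, where 14.1% of all genes were, and 1 had an unadjusted p under 0.05 (5095 of all 19938 genes). Mmp8 had the largest change of the 9. It read 6.32, 6.89, 5.94, 6.76 and 6.93 at 18 h, against 6.26, 6.06, 6.16, 5.76 and 6.21 at 0 h, a change of 0.48 ± 0.20 (limma adjusted p = 0.109). Array 3 was the one 18 h array inside the 0 h range, and without it the change was 0.64 (adjusted p = 0.0283). Lcn2 read 10.31, 10.48, 10.79, 10.37 and 11.20 at 18 h in water tumours, and its change of 0.14 ± 0.22 was not called. Array 5 of this group was the highest on any array for Cxcr2, Retnlg and Lcn2.

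From 0 to 6 h in water tumours 0 of the 9 genes were called (1.11% of all genes, with 0 of the 9 and 2113 of all genes at an unadjusted p under 0.05), and changes ran from -0.13 for Cxcr2 to 0.33 for Mmp8. From 6 to 18 h 0 were called (9.58% of all genes), and 1 had an unadjusted p under 0.05 (4838 of all genes). This was Ngp, with 0.18 ± 0.07 (limma adjusted p = 0.104). Ngp read 5.56, 5.40, 5.52, 5.25 and 5.31 at 18 h, against 5.19, 5.20, 5.49, 5.18 and 5.09 at 6 h in water tumours. The change was called with array weights (adjusted p = 0.0281) and without water 6 h array 3 (0.24, adjusted p = 0.0225), all at levels within the range of the silent receptor rows. Between any 2 times within a treatment, 0 of the 9 genes had groups without overlap. The shares of all genes were 0.978%, 3.26% and 2.8% with antibiotics and 4.93%, 11.2% and 11.7% with water, for 6 against 0 h, 18 against 0 h and 18 against 6 h.

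Whether antibiotics altered the change with time was tested as an interaction. At 6 h 0 of the 9 genes passed (0% of all genes), and at 18 h 0 passed (0.105% of all genes), with 0 of the 9 at an unadjusted p under 0.05 in each (1964 and 1893 of all genes). The widest estimates were -0.51 ± 0.28 for Mmp8 and -0.37 ± 0.37 for Cxcr2 at 6 h (limma adjusted p = 0.532 and 0.744), and 0.41 ± 0.31 for Lcn2 at 18 h (adjusted p = 0.789). A low in antibiotic tumours at 6 h that differs from water tumours is therefore not shown by this test.

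Some signals that call neutrophils into tissue or prolong their life rose with time in both treatments. Of 13 such genes 0 were called between antibiotic and water tumours at any time. The shares of all genes called were 0.0903% at 0 h, 3.77% at 6 h and 7.85% at 18 h. At 6 h 1 of the 13 had an unadjusted p under 0.05, as 3969 of all 19938 genes did. Ppbp, a platelet chemokine that binds Cxcr2, had the lowest p at 6 h (-0.64 ± 0.28, limma adjusted p = 0.194), followed by the growth factor Csf2 (-0.12 ± 0.07, adjusted p = 0.345). From 0 to 18 h 2 of 13 rose with antibiotics, where 1.22% of all genes were called: Il1b by 1.10 ± 0.24 and Il6 by 1.29 ± 0.31. In water tumours 3 of 13 rose from 0 to 18 h, where 14.1% of all genes were called: the same 2 inflammatory cytokines (1.13 ± 0.24 and 0.97 ± 0.31) and Tnf (0.23 ± 0.06). The call of Il6 was lost in 10 of 21 alternatives with antibiotics and in 9 of 21 with water, and that of Il1b with antibiotics in 5 of 21. The median change of the 13 was 0.19 with antibiotics and 0.23 with water, beside 0.012 for all genes in both.

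Of 15 other neutrophil surface receptors 13 had, like Cxcr2 and Csf3r, a lower mean in antibiotic tumours at 6 h. None was called (0 of 15), where 3.77% of all genes were. Of the 15, 2 had an unadjusted p under 0.05, as 3969 of all 19938 genes did. C5ar1, the receptor for the complement fragment C5a, had the lowest p (-0.41 ± 0.14, limma adjusted p = 0.0899), then Clec4d, a lectin receptor (-0.33 ± 0.16, adjusted p = 0.24). Over all times 2 of 15 were lower with antibiotics, where 6.65% of all genes were called: C5ar1 (-0.34 ± 0.08, adjusted p = 0.00725) and Ptafr, the receptor for platelet-activating factor (-0.33 ± 0.09, adjusted p = 0.0155). At 18 h 1 of 15 was lower, the integrin chain Itgb2 (-0.27 ± 0.08, adjusted p = 0.0294, lost in 6 of 21 alternatives), which is near the 7.85% of all genes called. From 0 to 18 h in water tumours, where 14.1% of all genes were called, 2 of 15 were: Clec4e, another lectin receptor (0.44 ± 0.15), and Cxcr4, a marrow retention receptor (-0.20 ± 0.06). These calls were lost in 13 and 6 of 21 alternatives. Macrophages carry several of these receptors as well. Which cells of the bulk tumour gave these values, EL4 cells included, was not tested.

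The 4 genes of primary granules, which fill first in the marrow, were called in 0 comparisons, where 0% to 14.1% of all genes were. At 6 h 0 of the 4 had an unadjusted p under 0.05, where 3969 of all 19938 genes did. Their group means at 6 h lay near or below the 95th percentile of the silent receptor rows (6.43). They ran from 5.66 for Ctsg with water to 6.61 for Mpo with antibiotics, so they have little signal above background. At 6 h Elane and Prtn3, which encode serine proteases, had the lowest p (both 0.13, limma adjusted p = 0.32 and 0.408). Of 16 further granule and antimicrobial genes, 1 was lower with antibiotics at 18 h, Chil3, a chitinase-like protein that macrophages also make (-1.21 ± 0.31, adjusted p = 0.0142). That is near the 7.85% of all genes called at 18 h. In water tumours 3 of 16 rose from 0 to 18 h, near the 14.1% of all genes called: Chil3 (1.59 ± 0.31), Hp, which encodes haptoglobin (0.64 ± 0.14), and Lyz2, the lysozyme of myeloid cells (0.47 ± 0.13). At 6 h 0 of the 16 were called between treatments, where 3.77% of all genes were. Of the 16, 1 had an unadjusted p under 0.05 at that time, as 3969 of all 19938 genes did. Padi4, which modifies histones in neutrophils, had the lowest p (0.27 ± 0.10, adjusted p = 0.138), followed by Wfdc21 (0.12 ± 0.07, adjusted p = 0.305).

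Of 6 transcription factors of granulocyte development, Gfi1, which T cells also express, was higher with antibiotics at 6 h (0.32 ± 0.06, limma adjusted p = 0.00421), at 18 h (0.20 ± 0.06, adjusted p = 0.0454) and over all times (0.25 ± 0.04). The 18 h call was lost in 13 of 21 alternatives. The shares of all genes called were 3.77%, 7.85% and 6.65% in these comparisons. From 0 to 18 h Gfi1 fell by 0.28 with antibiotics (1.22% of all genes called, and lost in 5 of 21 alternatives) and by 0.25 with water (14.1% of all genes called). Spi1, which encodes PU.1 and is shared with macrophages, was lower at 18 h (-0.50 ± 0.13, adjusted p = 0.0134) and over all times (-0.33 ± 0.07). Cebpa was lower at 18 h (-0.29 ± 0.07) and over all times (-0.14 ± 0.04, adjusted p = 0.0361, lost in 12 of 41 alternatives). Cebpe, the factor most tied to late granule genes, was called in 0 comparisons.

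Markers of some other host cells moved with the neutrophil genes from array to array. The mean of 12 monocyte and macrophage markers per array had an r of 0.542 to 0.699 with the 7 genes other than Camp and Ngp, for instance 0.699 with Cxcr2 (rho 0.607, adjusted permutation p = 0.00022 and 0.0029, and 0.609 without the 2 farthest arrays). The mean of 7 endothelial markers had an r of 0.783 with Cxcr2 (rho 0.744, adjusted permutation p = 9e-05 and 0.00017, 0.702 without the 2 farthest arrays) and 0.73 with Mmp8 (rho 0.757, 0.714 without them). With Lcn2 the endothelial r was 0.326 (rho 0.306, adjusted permutation p = 0.14 and 0.17). Eosinophil and mast cell markers had an r of 0.284 to 0.558 with the same 7 genes. Those with Csf3r, Cxcr2, Retnlg, Lcn2 and Mmp8 passed by both r and rho. For T cell markers the r was 0.0329 to 0.295, and for B and plasma cell markers -0.203 to -0.0167. No T, B or plasma cell relation with the 7 genes passed after adjustment. At 6 h all 12 macrophage markers and all 7 endothelial markers had lower means with antibiotics. Of them 0 were called, where 3.77% of all genes were. An unadjusted p under 0.05 was seen for 4 and 1 of them, and for 3969 of all 19938 genes. These markers were read on the same arrays, so their signs are not separate observations. The lowest p among the macrophage markers were those of Mertk (-0.39 ± 0.16, limma adjusted p = 0.166) and Mpeg1 (-0.44 ± 0.19, adjusted p = 0.18), and among the endothelial markers those of Pecam1 (-0.22 ± 0.07, adjusted p = 0.0890) and Tek (-0.16 ± 0.10, adjusted p = 0.383). The macrophage mean ran from -0.41 to 0.28 over the antibiotic arrays and from -0.17 to 0.20 over the water arrays, and the endothelial mean from -0.29 to 0.10 and from -0.20 to 0.15 in the same order of groups. None of these markers was at 0. Their part in the lower values of Cxcr2 and Mmp8 was not tested.

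Of 9 T cell markers 1 was called at 6 h, where 3.77% of all genes were. This was Cd3d, higher with antibiotics (0.20 ± 0.05, limma adjusted p = 0.0275), beside the higher Gfi1 of that time. The same gene was lower with antibiotics at 18 h (-0.19 ± 0.05, adjusted p = 0.0183), where 7.85% of all genes were called. Cd3e (-0.09 ± 0.03, adjusted p = 0.0322) and Cd5 (-0.14 ± 0.03, adjusted p = 0.00238) were lower over all times, where 6.65% of all genes were called. At 18 h 3 of 12 macrophage markers were lower with antibiotics, where 7.85% of all genes were called, beside Spi1, Cebpa, Itgb2 and Chil3. The 3 were Cd68 (-0.53 ± 0.10), C1qb (-0.51 ± 0.11) and Mertk (-0.57 ± 0.16). Over all times 5 of 12 macrophage markers were lower, where 6.65% of all genes were called. They were the same 3 with C1qc and Mpeg1, beside C5ar1, Ptafr, Spi1 and Cebpa. In water tumours 3 of 7 endothelial markers rose from 0 to 18 h, Pecam1 (0.22 ± 0.07), Tie1 (0.21 ± 0.06) and Eng (0.33 ± 0.11), where 14.1% of all genes were called. The mean of 8 skeletal muscle markers had an r of 0.491 with Cxcr2 (rho 0.437, adjusted permutation p = 0.015 and 0.04, 0.476 without the 2 farthest arrays) and of 0.483 with Csf3r (rho 0.489, adjusted permutation p = 0.016 and 0.019, 0.408 without them). The part of these markers in the values of the other genes was not tested.

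The keratinocyte mean had a rho of -0.447 to -0.152 with the 7 genes other than Camp and Ngp, and an r of -0.543 to -0.237 without water array 1 and antibiotic array 1 at 6 h. One of these relations passed by rho after adjustment, that with Retnlg (rho -0.447, r -0.367, adjusted permutation p = 0.035 and 0.087). The mean had an r of 0.184 with S100a8 (rho -0.171), but -0.493 without those arrays, so the pooled value rests on those arrays. With Cxcr2 it was -0.286 (rho -0.296), and -0.543 without them. Over all 30 arrays none of the relations with S100a8 or Cxcr2 passed after adjustment (smallest adjusted permutation p = 0.19). The values without those 2 arrays were not tested. Of 14 keratinocyte and 8 skeletal muscle markers 0 were called in any comparison, where 0% to 14.1% of all genes were.

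**Figure D5:**
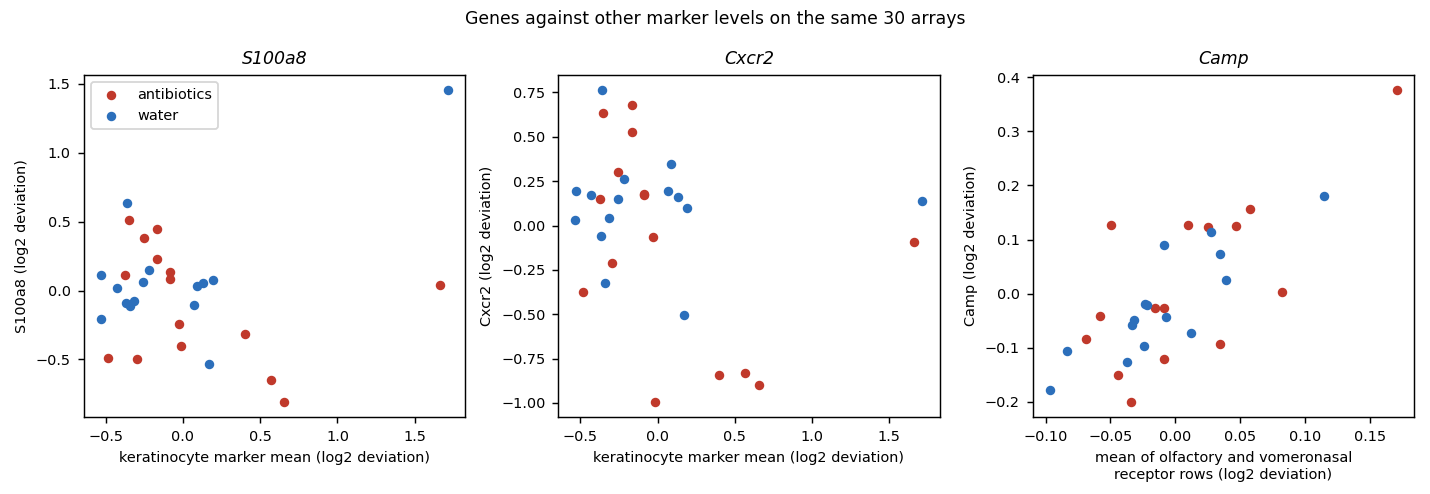
Log2 deviation of single genes (y axes) against the mean log2 deviation of other markers on the same 30 arrays (x axes), with red points for antibiotics and blue points for water. S100a8 and Cxcr2 are plotted against the keratinocyte mean, where 2 arrays lie far to the right and 1 of them is also the highest for S100a8. Camp is plotted against the mean of the silent receptor rows, with r = 0.761.

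The 5 genes outside the list whose levels were most like the mean of the 9, each scaled to its own SD, were Rbms1 (r = 0.873), Ifitm1 (0.869), Tnfrsf1b (0.86), Entpd1 (0.848) and Csf2rb2 (0.843), over 30 arrays. Tnfrsf1b encodes a receptor for tumour necrosis factor, and Csf2rb2 a beta chain of cytokine receptors. These values describe the nearest of 19938 genes and were picked for their size.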

How the data were processed

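Tumour RNA from 30 samples was hybridised to Affymetrix mouse gene arrays. The deposited values, in 28853 rows, were taken as log2 expression from their range. The submitters' processing notes name Partek 6.6 without its role. The sources used here do not give how probes were summarised or scaled. Medians of the arrays were 7.25 to 7.37. Rows with 1 symbol (21775) were named through the platform's probe table, 1578 rows with several symbols were left out, and 5500 had no symbol here. The row with the highest mean was kept for each of 19938 genes.

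One linear model with 6 group means per gene was fitted with limma 3.58.1 in R 4.3.3 (24 residual and 3.63 prior degrees of freedom) on the log2 values as deposited by the authors. The 12 comparisons were two-sided, with Benjamini-Hochberg adjustment over all genes, and a gene was called at an adjusted p under 0.05. Changes are first minus second group, ± SE. Alternatives were 11 settings and leaving out each array. The number of arrays limits the precision. The script was tested on simulated data.

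The 9 genes and 13 other lists (135 of 146 planned genes tested, the others not analysed here) were chosen with earlier results of these data known. All 9 were named, and from other lists the called genes (at most 4) or, where none was called, the 2 with the lowest p, in a comparison discussed for that list; other calls in those lists are not named. Promoters and names came from RefSeq on GRCm38.p6. No build is named for the array.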

Additional observations from a re-analysis of the deposited data

Results flagged for a closer look

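In 6 of the 54 sets of 5 arrays (9 genes in 6 groups) the highest or lowest array stood apart from the others of its group by Dixon's test at the 95% level, which chance gives in about 5% of sets. S100a9 read 9.13 on water array 1 at 6 h, where the next array read 7.88. That array also had the highest keratinocyte mean of all 30. Cxcr2 read 8.26 on water array 3 at 6 h, and the next lowest array of the group read 8.80. Retnlg read 6.69 on antibiotic array 1 at 0 h (next 6.25) and 6.80 on antibiotic array 5 at 6 h (next 6.04), the array with the highest muscle mean. Ngp read 5.48 on antibiotic array 3 at 6 h (next 5.29), the array with the highest mean of silent receptor rows, and 5.49 on water array 3 at 6 h (next 5.20).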

How the results depend on the processing

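The count of called genes among the 9 was 0 in the fit as reported and changed under few settings. With array weights it was 1 for antibiotics against water at 6 h (Mmp8), 2 over all times (Lcn2 and Mmp8) and 1 for 18 against 6 h in water tumours (Ngp). Without the 3 skin or muscle arrays it was 1 at 6 h (Cxcr2), 1 over all times (Lcn2) and 1 for 18 against 6 h in antibiotic tumours (Cxcr2). Leaving out single arrays gave 0 to 1 calls for antibiotics against water at 6 h and over all times, and for 18 against 0 h and 18 against 6 h in water tumours, and 0 elsewhere. The causes were not tested. Retnlg at 6 h ran from -0.24 to 0.00062 over the left-out arrays, turning positive without antibiotic array 2. Quantile normalization, subtracted array medians, a fit of the compared groups alone, robust eBayes, a filter on low rows, the mean of rows, all rows tested, the keratinocyte mean as a covariate and a minimum change of 1.2-fold left the count at 0. Over all genes the counts called ran from 192 to 1420 at 6 h (752 as reported) and from 771 to 1686 at 18 h (1566) when single arrays were left out, and from 0 to 1266 and 1 to 1920 over the other settings, lowest with the minimum change of 1.2-fold. For the named signal, receptor, granule and transcription factor genes, the report gives the calls lost in 5 or more alternatives, and no direction turned among them. The minimum change of 1.2-fold also ended their other calls between treatments. Spi1 at 18 h was not called without antibiotic array 1 (-0.40), Chil3 at 18 h without antibiotic array 4 (-0.99) or in a fit of the compared groups alone, which also ended the 6 h call of Gfi1, and Lyz2 from 0 to 18 h without water 0 h array 4 (0.39). No paired analysis was possible because samples were numbered once from first to last, so no number is shared between groups. Camp, Ngp, Retnlg and Mmp8 lie near the silent rows in level, so their margin above background is small. Camp and Ngp had a positive r with the mean of those rows (0.761 and 0.524). Retnlg and Mmp8 had a negative one (-0.295 and -0.415).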
